A study of Homo sapiens with 12 samples.

Results

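The genes described here are 10 members of the BCL2 family of apoptosis regulators, namely BCL2, BCL2L1, MCL1, BAX, BAK1, BID, BIK, BCL2L11, PMAIP1 and BBC3. They were chosen by a list of names. The list itself uses no measured value, but it was drawn up with earlier results of these data known. All 10 were found by gene symbol among the 57773 genes of the deposited count table. RNA sequencing was carried out on A549 cells, an established human lung adenocarcinoma line, transfected with siGOLM1-1, with siGOLM1-2 or with a non-targeting control siRNA. Both GOLM1 siRNAs are directed at GOLM1, which encodes a membrane protein of the Golgi apparatus. Every group, the control included, received 50 nM of its siRNA by reverse transfection with Lipofectamine RNAiMAX and was harvested after 72 h, and each of the 3 groups had 4 libraries labelled as biological replicates. All libraries come from this 1 cell line at 1 dose and 1 time, and untransfected cells were not analysed here. The comparisons ask how the transcripts of these apoptosis regulators differ when GOLM1 is silenced, and whether the siRNAs differ from each other.

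The BCL2 family decides whether the outer mitochondrial membrane is opened in the intrinsic pathway of apoptosis. Guardians such as BCL2, BCL-XL (the main product of BCL2L1) and MCL1 bind and restrain the effectors BAX and BAK, which otherwise form pores and release cytochrome c, the trigger of caspase activation. BH3-only proteins sense stress and either block the guardians or activate the effectors directly. Several of them, among them PUMA (encoded by BBC3) and NOXA (encoded by PMAIP1), are textbook transcriptional targets of p53, and A549 cells carry wild-type p53. Much of the control of the family takes place on the proteins, by binding, cleavage, phosphorylation and degradation, and transcript levels do not show it.

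Libraries held 41617042 to 71344718 counts. GOLM1 itself held 37.5 to 38.9 CPM (the usual depth-scaled count, here with TMM factors) in the siGOLM1-1 libraries and 44.6 to 53.4 CPM in the siGOLM1-2 libraries, against 345 to 378 CPM in the control libraries. All 7 epithelial markers of A549 cells had a mean of at least 1 CPM in every group, and their summed level was 13973 to 15931 CPM with siGOLM1-1 and 13805 to 15206 CPM with siGOLM1-2, against 16283 to 18422 CPM in the control. Single markers moved within these sums: ALDH1A1, the most abundant, averaged 10414 CPM with siGOLM1-1 and 5196 CPM with siGOLM1-2, against 8835 CPM in the control, and was called higher with siGOLM1-1 and lower with siGOLM1-2. KRT8 and KRT18 were called lower with siGOLM1-1 (log2 fold changes of -1.03 and -1.06) and were not called with siGOLM1-2, AKR1B10 was called lower with siGOLM1-1 (-0.43) and higher with siGOLM1-2 (0.61), and KRT19 was called higher with siGOLM1-2 (1.52). Of 12 markers of immune, endothelial, mesenchymal and other lung cells, 11 were in the table, with sums of 81.7 to 133, 81.3 to 92.6 and 78.3 to 125 CPM with siGOLM1-1, siGOLM1-2 and control. PTPRC, CD3E, CD68, VWF and SCGB1A1 held at most 7 counts in any library. CDH5 was called higher with both siRNAs, at 1.48 and 0.81 CPM with siGOLM1-1 and siGOLM1-2, against 0.38 CPM in the control (log2 fold changes of 1.96 and 1.10). COL3A1 was called lower with siGOLM1-1 (-1.39) and higher with siGOLM1-2 (1.81), ACTA2 lower with siGOLM1-1 (-0.40), and COL1A1 lower with siGOLM1-2 (-0.85). Control replicates 1 and 2 deviated together from their group mean, as did control replicates 3 and 4, with correlations of 0.33 and 0.39 across genes, which are not independent replicates. Correlations between these pairs were -0.70 to -0.66, in part by construction, since the deviations of a group sum to 0. Within siGOLM1-2, replicate 4 was the highest of the group for 8 of the 10 members and the lowest for the other 2. Values without a control pair or without siGOLM1-2 replicate 4 are given below for the members. They are given where the call changed or a called log2 fold change moved by over 1.5 times. For other genes, such values are given in part. Mitochondrial transcripts took 4.10% ± 0.70 of counts with siGOLM1-1 and 6.01% ± 1.14 with siGOLM1-2, against 6.28% ± 1.31 in the control (SD, n = 4 each). The part of these shares and of the marker levels in the results below was not tested.

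A gene was called when edgeR's quasi-likelihood test, fitted once to all 12 libraries, gave a Benjamini-Hochberg adjusted p under 0.05 over the 17532 genes tested. All 10 members passed the filter on low counts. With siGOLM1-1, 8 of the 10 members were called against control, 7 higher and 1 lower. Over all genes tested 47.5% were called, 23.7% as higher and 23.8% as lower. With siGOLM1-2, 5 of the 10 were called, 3 higher and 2 lower, where 45% of all genes tested were called, 21.8% as higher and 23.2% as lower. The median log2 fold change of the members was 0.93 with siGOLM1-1 and 0.19 with siGOLM1-2, and over all genes tested it was -0.01 in both comparisons. BIK, PMAIP1 and BBC3 were called higher with both siRNAs. MCL1 was called in opposite directions, BAX, BAK1, BID and BCL2L11 were called with siGOLM1-1 alone, BCL2 with siGOLM1-2 alone, and BCL2L1 with neither. The siRNAs share their control libraries, so their results against control are not independent of each other.

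**Figure D1:**
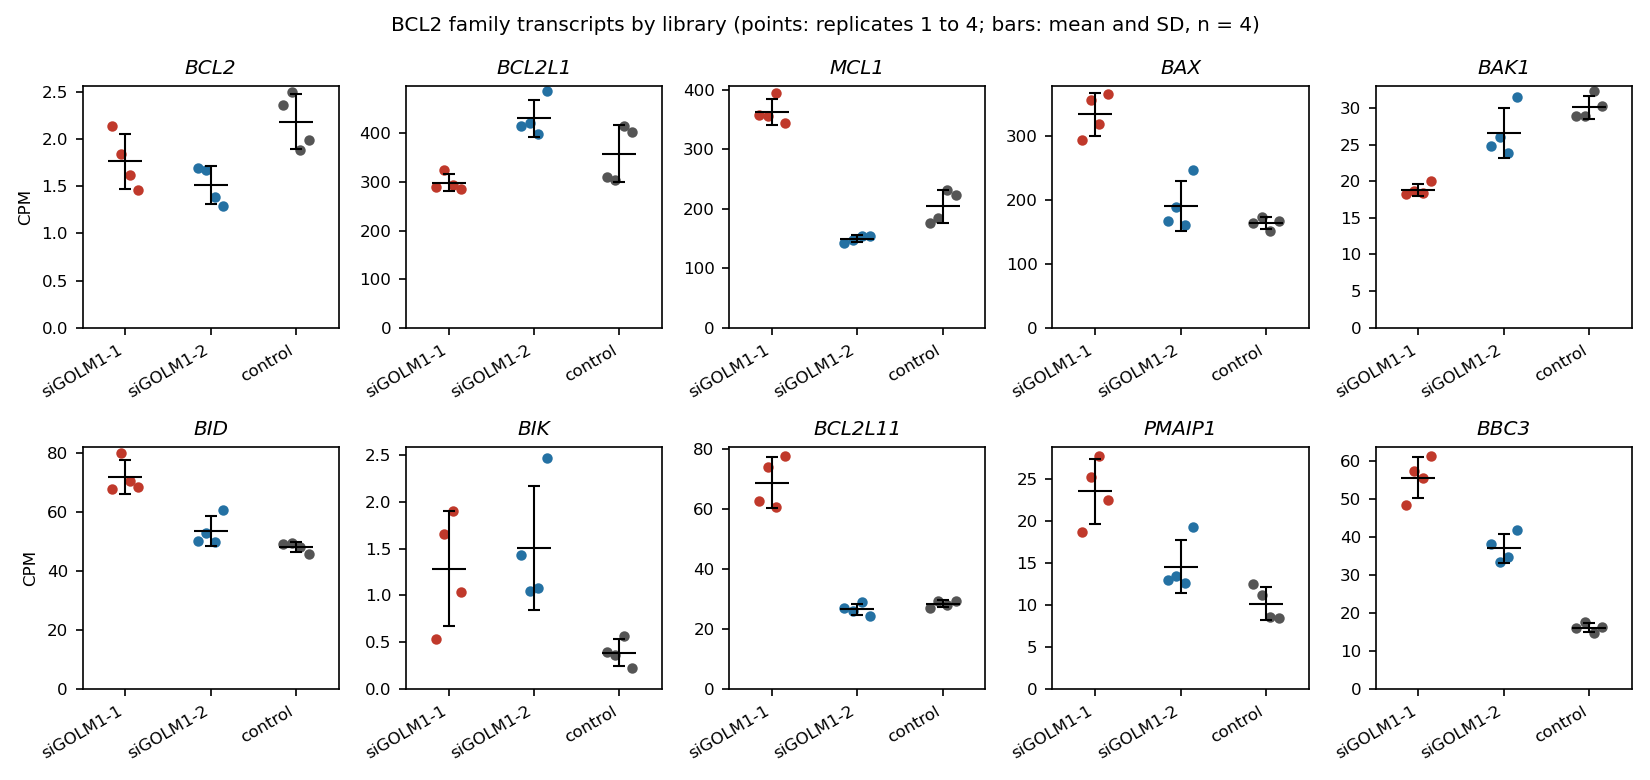
Level of each of the 10 members in every library, in CPM, with siGOLM1-1, siGOLM1-2 and control from left to right. Each point is 1 library, and a bar marks the mean of 4. BBC3 was at 48.5 to 61.3 CPM with siGOLM1-1 and at 33.6 to 42.0 CPM with siGOLM1-2, above all control libraries at 14.7 to 17.7 CPM.

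Among the guardians, MCL1 differed most between the groups. MCL1 (ENSG00000143384) binds BAK and the BH3-only proteins NOXA and BIM, and both its transcript and its protein are short-lived. It held 357, 355, 393 and 345 CPM in replicates 1 to 4 with siGOLM1-1 and 143, 147, 154 and 155 CPM with siGOLM1-2, against 176, 185, 231 and 224 CPM in the control. All siGOLM1-1 libraries were above, and all siGOLM1-2 libraries below, every control library. The level was 1.78-fold higher with siGOLM1-1 (a log2 fold change of 0.83, SE 0.09, adjusted p = 5.53e-06) and, with siGOLM1-2, 1.36-fold lower (-0.44, SE 0.09, adjusted p = 0.00113). In bulk RNA, a change in every cell and a change in the share of cells of 1 state cannot be told apart, and the same holds for fewer cells of a type and less RNA per cell. The siGOLM1-2 fold was -0.27 on the log2 scale against control replicates 1 and 2 alone and -0.58 against control replicates 3 and 4 alone, and both were called.

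BCL2L1 (ENSG00000171552), whose main product BCL-XL is a guardian of epithelial cells, did not pass the test with either siRNA. It held 290.3, 324, 294 and 285 CPM with siGOLM1-1 and 416, 421, 398 and 487 CPM with siGOLM1-2, against 310.3, 305, 415 and 404 CPM in the control. The control libraries overlapped both siRNA groups, and replicates 3 and 4 of the control lay near the siGOLM1-2 libraries. The log2 fold changes were -0.27 with siGOLM1-1 (SE 0.11, adjusted p = 0.0551) and 0.26 with siGOLM1-2 (SE 0.11, adjusted p = 0.0585). With control replicates 3 and 4 alone, the siGOLM1-1 value was -0.45 (adjusted p = 0.00185), and with control replicates 1 and 2 alone it was -0.04 (adjusted p = 0.741). For siGOLM1-2 it was 0.48 with control replicates 1 and 2 alone (adjusted p = 0.00188) and 0.09 with control replicates 3 and 4 alone (adjusted p = 0.475). The authors' deposited table, made with DESeq2, called BCL2L1 higher with siGOLM1-2 (a log2 fold change of 0.28, adjusted p = 0.0451); for every other member the authors' deposited tables gave the same call at this threshold. Counts per gene do not separate the BCL-XL transcript from the shorter BCL-XS splice form, which promotes apoptosis.

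BCL2 (ENSG00000171791), the founding guardian, was scarce in these cells. The siGOLM1-1 libraries held 2.13, 1.84, 1.62 and 1.46 CPM and the siGOLM1-2 libraries 1.70, 1.68, 1.39 and 1.29 CPM, against 2.36, 2.501, 1.88 and 1.99 CPM in the control. All siGOLM1-2 libraries were below every control library, whereas siGOLM1-1 overlapped the control. BCL2 fell with siGOLM1-2 (a log2 fold change of -0.53, SE 0.17, adjusted p = 0.0199), and with siGOLM1-1 its log2 fold change was -0.30 (SE 0.17, adjusted p = 0.151). The siGOLM1-2 call was lost against control replicates 3 and 4 alone (-0.34, adjusted p = 0.200), without control replicate 2 (-0.44, adjusted p = 0.0701), without siGOLM1-2 replicate 3 (-0.49, adjusted p = 0.0539) and without siGOLM1-2 replicate 4 (-0.46, adjusted p = 0.0529). It was also lost when libraries were scaled by their totals alone (-0.45, adjusted p = 0.0502).

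**Figure D2:**
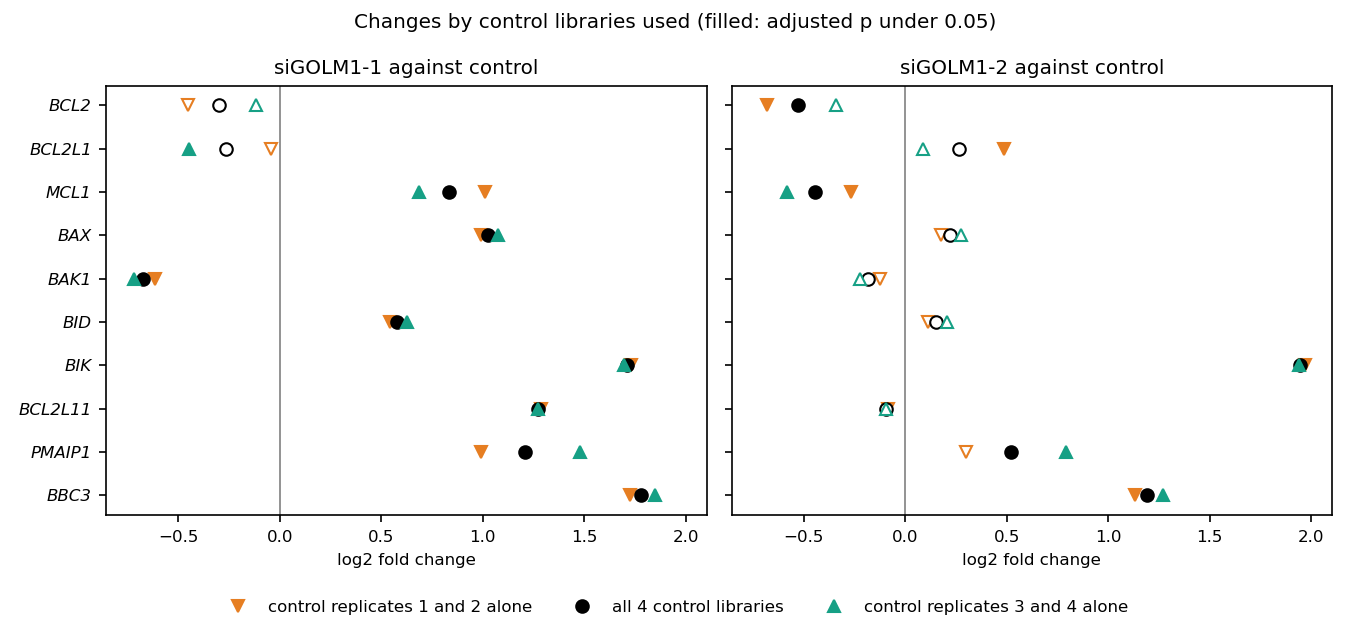
Log2 fold change of each member with siGOLM1-1 and with siGOLM1-2, computed against all control libraries, against control replicates 1 and 2 alone and against control replicates 3 and 4 alone; filled points passed an adjusted p of 0.05 in edgeR. MCL1, BCL2L1, PMAIP1 and BCL2 moved most with the choice of control pair, and BCL2L1 with siGOLM1-2 ran from 0.48 to 0.09.

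The control pairs differed for these 4 transcripts. Control replicates 3 and 4 averaged 1.33 times the level of control replicates 1 and 2 for BCL2L1, 1.26 times for MCL1, 0.797 times for BCL2 and 0.718 times for PMAIP1. For the other 6 members this ratio lay between 0.921 and 1.08. The labels do not name a batch, and the part of this split in the results was not tested beyond the values given.

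The pore-forming effectors moved apart from each other with siGOLM1-1. BAX (ENSG00000087088), which sits in the cytosol until activated, held 294, 358, 319 and 366 CPM with siGOLM1-1 and 167, 190, 160 and 246 CPM with siGOLM1-2, against 164, 173, 152 and 168 CPM in the control. Every siGOLM1-1 library was above every library of the other groups, and siGOLM1-2 overlapped the control, with replicates 2 and 4 above the control range. BAX was 2.04-fold higher with siGOLM1-1 (a log2 fold change of 1.03, SE 0.12, adjusted p = 1.3e-05). Its log2 fold change with siGOLM1-2 was 0.22 (SE 0.12, adjusted p = 0.157), and without siGOLM1-2 replicate 4 it was 0.07.

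BAK1 (ENSG00000030110) encodes BAK, the effector that resides on the mitochondrial outer membrane, and it was the 1 member called lower with siGOLM1-1. It held 18.3, 18.7, 18.3 and 20.1 CPM with siGOLM1-1 and 24.8, 26.0, 23.8 and 31.4 CPM with siGOLM1-2, against 28.9, 28.8, 32.3 and 30.3 CPM in the control. All siGOLM1-1 libraries were below every other library, and 3 of the 4 siGOLM1-2 libraries were below every control library. BAK1 fell 1.60-fold with siGOLM1-1 (a log2 fold change of -0.67, SE 0.09, adjusted p = 3.45e-05). With siGOLM1-2 the value was -0.18 (SE 0.09, adjusted p = 0.109), and without siGOLM1-2 replicate 4 it was -0.27 and was called (adjusted p = 0.010). Its pseudogene copy BAK1P1 held 40 to 67 counts per library and was not called with either siRNA. How the authors' counting divided reads that match both was not given in the sources used here.

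All 5 BH3-only members were called higher with siGOLM1-1, and 3 of the 5 with siGOLM1-2. The shares of all genes called higher were the 23.7% and 21.8% given above. BBC3 (ENSG00000105327), which encodes PUMA, a binder of every guardian, was higher with both siRNAs. It held 48.5, 57.4, 55.6 and 61.3 CPM with siGOLM1-1 and 38.1, 33.6, 34.7 and 42.0 CPM with siGOLM1-2, against 16.1, 17.7, 14.7 and 16.4 CPM in the control. The 3 groups did not overlap. BBC3 was 3.43-fold higher with siGOLM1-1 (a log2 fold change of 1.78, SE 0.10, adjusted p = 1.2e-08) and 2.29-fold higher with siGOLM1-2 (1.19, SE 0.10, adjusted p = 6.64e-07). Over 18 alternatives the log2 fold change ran from 1.72 to 1.85 with siGOLM1-1 and from 1.13 to 1.27 with siGOLM1-2.

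PMAIP1 (ENSG00000141682) encodes NOXA, which binds MCL1 and promotes its degradation. It held 18.7, 25.2, 27.8 and 22.6 CPM with siGOLM1-1 and 13.0, 13.5, 12.7 and 19.4 CPM with siGOLM1-2, against 12.5, 11.2, 8.62 and 8.44 CPM in the control. Both siRNA groups were above every control library, and siGOLM1-2 replicate 4 lay within the siGOLM1-1 range. PMAIP1 was 2.31-fold higher with siGOLM1-1 (a log2 fold change of 1.21, SE 0.17, adjusted p = 7.02e-05) and 1.43-fold higher with siGOLM1-2 (0.52, SE 0.17, adjusted p = 0.0242). The siGOLM1-2 call was lost against control replicates 1 and 2 alone (0.30, adjusted p = 0.246), without siGOLM1-2 replicate 4 (0.35, adjusted p = 0.0835), without control replicate 3 (0.44, adjusted p = 0.0719) and without control replicate 4 (0.44, adjusted p = 0.0728). Against control replicates 3 and 4 alone the siGOLM1-2 value was 0.79 (adjusted p = 0.00593). The siGOLM1-1 call was kept with either pair of controls, at 0.99 when only control replicates 1 and 2 were used and at 1.48 with only control replicates 3 and 4.

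BCL2L11 (ENSG00000153094) encodes BIM, a BH3-only protein that binds all guardians and can activate BAX and BAK. It held 62.4, 73.9, 60.7 and 77.7 CPM with siGOLM1-1 and 27.1, 26.0, 28.9 and 24.3 CPM with siGOLM1-2, against 27.0, 29.3, 28.0 and 29.3 CPM in the control. The siGOLM1-1 libraries stood above all others, and siGOLM1-2 overlapped the control. BCL2L11 was 2.42-fold higher with siGOLM1-1 (a log2 fold change of 1.27, SE 0.09, adjusted p = 1.15e-07), and its log2 fold change was -0.10 with siGOLM1-2 (SE 0.09, adjusted p = 0.395). In GENCODE 29 its exons overlap the antisense gene MIR4435-2HG. Counts under that gene's other symbol, MIR4435-1HG, averaged 18.5 ± 3.98 CPM with siGOLM1-1 and 28.0 ± 9.06 CPM with siGOLM1-2, against 14.3 ± 1.49 CPM in the control (SD, n = 4 each). The strand setting of the counting was not given in the sources used here, so reads of the pair cannot be told apart with certainty; the antisense gene was called higher with siGOLM1-2 (a log2 fold change of 0.97, adjusted p = 0.00144), where BCL2L11 was not, and was not called with siGOLM1-1 (0.37, adjusted p = 0.140).

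BID (ENSG00000015475) links death receptors to mitochondria, since caspase-8 cleaves it into its active form. It held 67.9, 80.1, 70.5 and 68.5 CPM with siGOLM1-1 and 50.03, 52.9, 49.97 and 60.8 CPM with siGOLM1-2, against 49.0, 49.6, 48.0 and 45.7 CPM in the control. Every library of both siRNAs was above every control library, though the siGOLM1-2 margin was narrow. BID was 1.49-fold higher with siGOLM1-1 (a log2 fold change of 0.58, SE 0.08, adjusted p = 4.64e-05), and with siGOLM1-2 its log2 fold change was 0.15 (SE 0.08, adjusted p = 0.133).

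BIK (ENSG00000100290), whose BH3-only product is found largely at the endoplasmic reticulum, had few counts. The siGOLM1-1 libraries held 38, 88, 94 and 49 counts (0.54, 1.66, 1.90 and 1.04 CPM) and the siGOLM1-2 libraries 71, 62, 55 and 124 counts (1.43, 1.05, 1.08 and 2.47 CPM), against 20, 15, 27 and 11 counts (0.40, 0.36, 0.57 and 0.22 CPM) in the control. All siGOLM1-2 libraries were above every control library, and siGOLM1-1 replicate 1 fell within the control range. BIK was 3.27-fold higher with siGOLM1-1 (a log2 fold change of 1.71, SE 0.43, adjusted p = 0.00499) and 3.85-fold higher with siGOLM1-2 (1.95, SE 0.43, adjusted p = 0.00219). Both standard errors were the largest of the members. The log2 fold change was 1.98 with siGOLM1-1 without its replicate 1 and 1.60 with siGOLM1-2 without its replicate 4, and both were called.

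**Figure D3:**
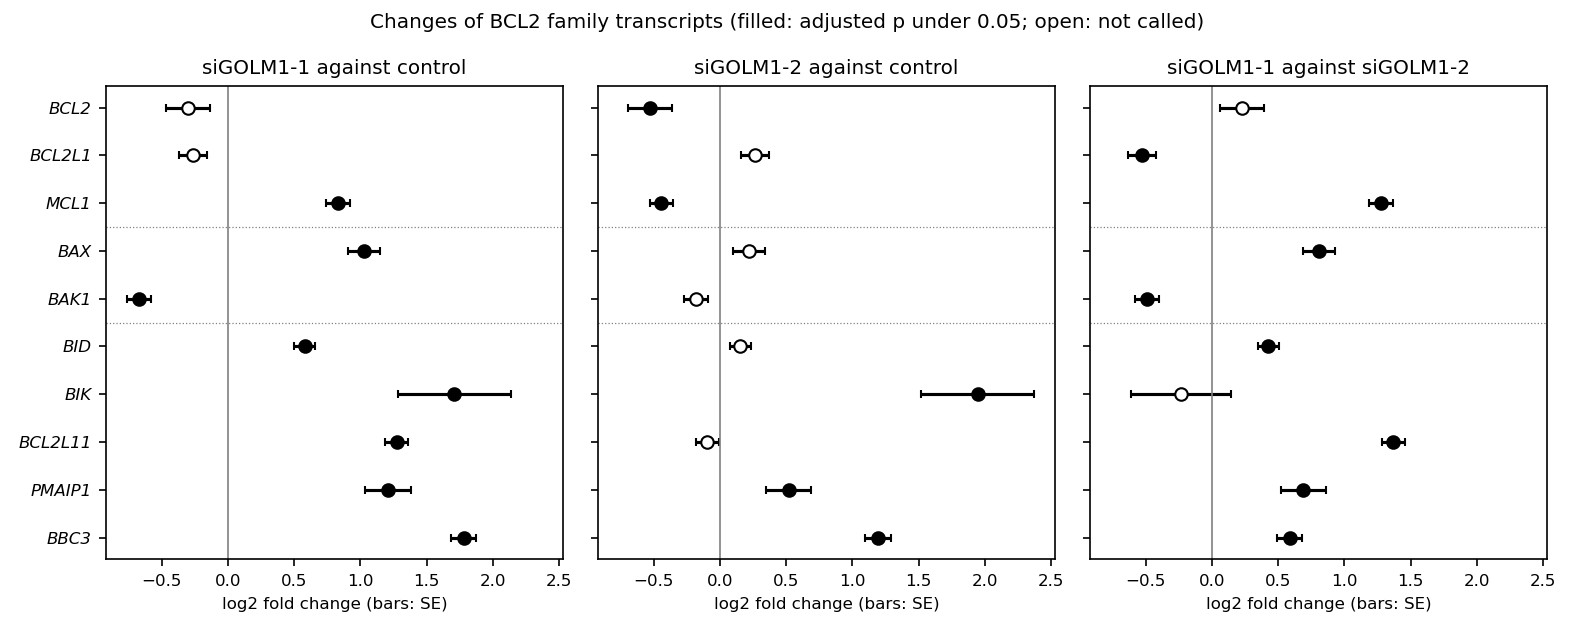
Log2 fold change of each member with siGOLM1-1 and with siGOLM1-2 against control, and with siGOLM1-1 against siGOLM1-2, with error bars of 1 SE from the edgeR fit; filled points passed an adjusted p of 0.05. BBC3, PMAIP1 and BIK lie above 0 with both siRNAs, and MCL1 lies at 0.83 with siGOLM1-1 and at -0.44 with siGOLM1-2.

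Promoters are shown for 4 members that rose with siGOLM1-1, BAX, BCL2L11, PMAIP1 and BBC3, which differed in their results with siGOLM1-2. These 4 were picked among the members that rose, and BID, which also rose with siGOLM1-1, was left out. The RefSeq table (GRCh38.p14, a later build than the hg19 of the counts) held a promoter for 8 of the 10 members. Each sequence below is the 250 bases before the annotated start, 5′ to 3′ on the strand of the gene, with motif matches on either strand in capitals. The motifs, chosen after earlier results were known, were the E-box CACGTG, the AP-1 site TGAGTCA, the forkhead site GTAAACA, the GC box GGGCGG and the CCAAT box CCAAT, and none of the matches shown overlap.
BAX, chr19:48954625-48954874, plus strand: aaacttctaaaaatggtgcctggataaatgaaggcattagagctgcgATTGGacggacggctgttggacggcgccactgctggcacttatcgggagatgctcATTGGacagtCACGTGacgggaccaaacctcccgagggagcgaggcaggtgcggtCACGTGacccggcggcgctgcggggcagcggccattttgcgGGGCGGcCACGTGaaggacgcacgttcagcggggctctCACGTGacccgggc
BCL2L11, chr2:111120664-111120913, plus strand: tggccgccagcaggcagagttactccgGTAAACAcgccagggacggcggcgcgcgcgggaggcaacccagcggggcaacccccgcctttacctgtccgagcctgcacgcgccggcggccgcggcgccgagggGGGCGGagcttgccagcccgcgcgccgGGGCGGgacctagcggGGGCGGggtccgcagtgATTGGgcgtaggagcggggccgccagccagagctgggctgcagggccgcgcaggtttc
PMAIP1, chr18:59899746-59899995, plus strand: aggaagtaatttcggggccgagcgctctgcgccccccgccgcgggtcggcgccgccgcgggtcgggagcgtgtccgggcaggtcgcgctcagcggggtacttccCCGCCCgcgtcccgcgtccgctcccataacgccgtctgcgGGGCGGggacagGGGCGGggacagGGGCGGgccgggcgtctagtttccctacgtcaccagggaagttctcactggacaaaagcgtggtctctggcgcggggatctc
BBC3, chr19:47232668-47232917, minus strand: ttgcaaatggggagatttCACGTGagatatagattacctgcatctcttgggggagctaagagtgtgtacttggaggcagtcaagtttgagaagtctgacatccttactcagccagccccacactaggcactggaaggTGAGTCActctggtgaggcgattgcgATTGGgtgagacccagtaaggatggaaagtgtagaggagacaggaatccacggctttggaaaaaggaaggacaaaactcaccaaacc
The BAX promoter held 4 E-boxes, which began 138, 93, 45 and 14 bases before the start, where 6.345% of 35116 promoters of the same length held at least 1. It also held 1 GC box and 2 CCAAT boxes. BBC3 held 1 E-box 232 bases before the start, 1 AP-1 site 113 bases before it and 1 CCAAT box. BID, not shown, was the only other member searched with an E-box, 1 before each of its annotated starts numbered 2 and 5. BCL2L11 held the 1 forkhead site found in the 8 members searched, 223 bases before the start, along with 3 GC boxes and 1 CCAAT box. PMAIP1 held 4 GC boxes and no other of these motifs. Over all promoters, an AP-1 site was found in 4.203%, a forkhead site in 2.979%, a GC box in 42.64% and a CCAAT box in 32.01%. A p53 half-site pattern, RRRCWWGYYY (R a purine, W an A or T, Y a pyrimidine), was also searched for on either strand. It was found in 5.573% of promoters and, of the 8 members, in that of BAK1 alone. These matches describe letters in this window, and no binding was measured.

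The siRNAs were also compared with each other directly. Among the 10 members, 8 were called between siGOLM1-1 and siGOLM1-2, 6 higher and 2 lower, where 54.4% of all genes tested were called, 27.9% as higher and 26.5% as lower. Scaling by library totals alone put the median of all genes in this comparison at -0.12 on the log2 scale, against 0.01 with TMM factors, and the share of calls that were higher to 37.4%, against 51.2%; it changed no call of a member here. In the comparisons with control this scaling gave shares of 43% for siGOLM1-1, against 49.8% with TMM factors, and of 59.2% for siGOLM1-2, against 48.4%. BCL2L11 showed the largest difference and was 2.58-fold higher with siGOLM1-1 (a log2 fold change of 1.37, SE 0.09, adjusted p = 3.52e-08). MCL1 was 2.42-fold higher with siGOLM1-1 (1.27, SE 0.09, adjusted p = 7.42e-08). BAX was 1.75-fold higher (adjusted p = 7.25e-05), PMAIP1 1.61-fold (adjusted p = 0.00352), BBC3 1.5-fold (adjusted p = 0.000118) and BID 1.34-fold (adjusted p = 0.000425). BCL2L1 was 1.44-fold lower in the siGOLM1-1 libraries (a log2 fold change of -0.53, SE 0.11, adjusted p = 0.000877). The means compared leave out the control libraries, but the spread and the scaling were estimated with them. In an edgeR fit of the siRNA libraries alone the BCL2L1 value was -0.56 (adjusted p = 0.000151). BAK1 was 1.41-fold lower (adjusted p = 0.000353). BCL2 and BIK were not called, with log2 fold changes of 0.23 (SE 0.17, adjusted p = 0.273) and -0.24 (SE 0.38, adjusted p = 0.619). GOLM1 was itself slightly lower with siGOLM1-1 than with siGOLM1-2 (a log2 fold change of -0.30, SE 0.07, adjusted p = 0.00181).

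Libraries of the compared groups did not overlap for 7 of the 10 members with siGOLM1-1 against control, for 6 with siGOLM1-2 against control and for 7 with siGOLM1-1 against siGOLM1-2. Over all genes tested, 41%, 45.9% and 48.4% did not overlap in these comparisons.

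Levels of different members were compared per kilobase of exon, with the exon length of each gene from GENCODE 29, as CPM per kb. BAX, BCL2L1 and MCL1 were the most abundant members in each group, and BIK and BCL2 the least. With siGOLM1-1, BAX led at 129 ± 13.0 CPM per kb, followed by BCL2L1 at 89.9 ± 5.29 and MCL1 at 83.0 ± 4.88 CPM per kb, and the ranges of the last 2 overlapped. With siGOLM1-2, BCL2L1 led at 130 ± 11.7 CPM per kb, ahead of BAX at 73.8 ± 15.1 and MCL1 at 34.3 ± 1.29 CPM per kb. The control had the same order of these 3 as siGOLM1-2, with BCL2L1 at 108 ± 17.8, BAX at 63.4 ± 3.55 and MCL1 at 46.6 ± 6.31 CPM per kb (SD, n = 4 in each group). BBC3 ranked 4 of 10 with siGOLM1-1 at 17.5 ± 1.69 CPM per kb, and 6 of 10 with siGOLM1-2 at 11.7 ± 1.19 and in the control at 5.10 ± 0.39 CPM per kb. BAK1 ranked 8 of 10 with siGOLM1-1 at 8.52 ± 0.37 CPM per kb, 5 of 10 with siGOLM1-2 at 11.98 ± 1.54 and 4 of 10 in the control at 13.6 ± 0.73 CPM per kb. Several neighbours did not differ beyond their ranges: with siGOLM1-1, BBC3 and BID, and PMAIP1 and BCL2L11; with siGOLM1-2, BID, BAK1 and BBC3; in the control, BBC3 and PMAIP1, and PMAIP1 and BCL2L11. BCL2 was at 0.15, 0.13 and 0.19 CPM per kb with siGOLM1-1, siGOLM1-2 and control, the lowest level of a member in every group.

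Ratios of counts within a library do not depend on its scaling and were described without a test. The BAX to BCL2 ratio, a customary summary of the balance of effector and guardian transcripts, was 195 ± 46.1 with siGOLM1-1 and 129 ± 41.5 with siGOLM1-2, against 75.8 ± 7.62 in the control (SD, n = 4 each). It ran from 138 to 251 and from 98.4 to 191 with these siRNAs, against 69.3 to 84.1 in the control, so neither siRNA group overlapped the control. Against BCL2L1, the abundant guardian, BAX stood at 1.12 ± 0.12 with siGOLM1-1 and at 0.44 ± 0.05 with siGOLM1-2, against 0.47 ± 0.10 in the control, and the last 2 groups overlapped. Control replicates 1 and 2 were at 0.528 and 0.569, and control replicates 3 and 4 at 0.365 and 0.415. The siGOLM1-2 range of 0.401 to 0.506 lay below control replicates 1 and 2 and overlapped control replicates 3 and 4. The ratio of BBC3 to BCL2L1 was 0.187 ± 0.0209 with siGOLM1-1 and 0.0862 ± 0.0049 with siGOLM1-2, against 0.0465 ± 0.0103 in the control, and no groups overlapped. The PMAIP1 to MCL1 ratio was 0.0649 ± 0.0088 with siGOLM1-1 and 0.0974 ± 0.0191 with siGOLM1-2, against 0.0518 ± 0.0171 in the control. All siGOLM1-2 libraries exceeded every control library in that ratio, whereas siGOLM1-1, in which both genes were higher, overlapped the control. In the control the ratio was 0.0715 and 0.0606 in replicates 1 and 2, and 0.0373 and 0.0377 in replicates 3 and 4, so the siGOLM1-1 range of 0.0523 to 0.0712 overlapped control replicates 1 and 2 and lay above control replicates 3 and 4.

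**Figure D4:**
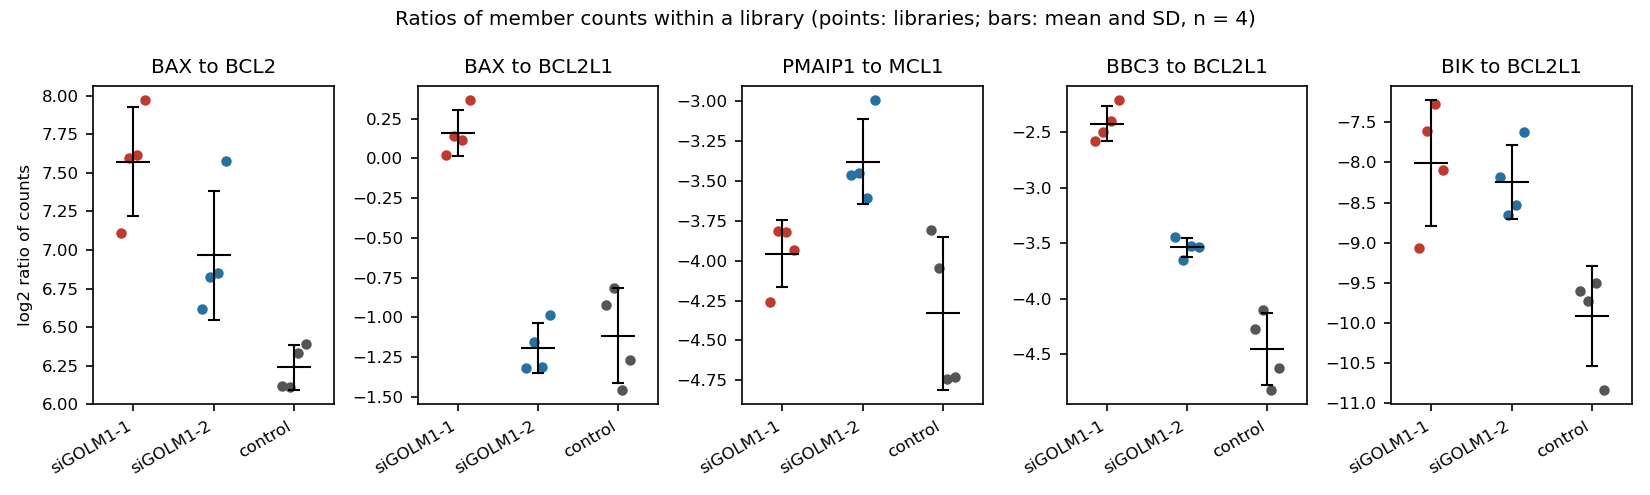
Log2 ratios of counts of pro-apoptotic to guardian members in each library, with siGOLM1-1, siGOLM1-2 and control from left to right. Each point is 1 library and each bar the group mean. Before the log2, the BAX to BCL2 ratio was 138 to 251 with siGOLM1-1 and 98.4 to 191 with siGOLM1-2, above 69.3 to 84.1 in the control. BIK to BCL2L1, with few BIK counts, averaged 0.0043 with siGOLM1-1 and 0.0034 with siGOLM1-2, against 0.0011 in the control.

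For each member called against control, the 2 genes of at least 5 CPM with the most similar profile over the 12 libraries were found by the root mean square difference of centred log2 CPM. BBC3 was most like NPTXR (0.122) and MDGA1 (0.143), where the median over all genes searched was 0.789. BCL2L11 was most like CXXC5 (0.0895) and FZD7 (0.129), MCL1 most like SH3BP4 (0.0843) and GBE1 (0.0946), and BAX most like NEK11 (0.104) and NXN (0.116). PMAIP1 was nearest to STK17A (0.0956) and a gene with only a clone name (0.129), BID to RIT1 (0.0609) and PSMD7 (0.0622), BAK1 to PPM1G (0.0652) and GRPEL1 (0.0697), and BCL2 to DHX9 (0.104) and RFC5 (0.109). The nearest profiles to BIK were SLCO2B1 (0.333) and RELB (0.387), at a greater distance than for the other members. No member was among the 2 nearest genes of another. BCL2 and BIK lie below the floor of 5 CPM, so this search could not return them.

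Beyond these members, 14 of 15 further BCL2 family genes were tested. Called higher were 2 with siGOLM1-1 and 4 with siGOLM1-2, and called lower were 5 and 2. In all, 50% and 42.9% of them were called, beside 47.5% and 45% of all genes tested. The genes called higher with siGOLM1-1 were both BH3-only. BMF, which is held at the cytoskeleton until released, held 10.2, 25.4, 24.7 and 32.6 CPM with siGOLM1-1 and 6.26, 5.77, 6.01 and 9.98 CPM with siGOLM1-2, against 5.70, 6.18, 9.51 and 11.3 CPM in the control. The groups overlapped, since siGOLM1-1 replicate 1 lay below control replicate 4. BMF was 2.83-fold higher with siGOLM1-1 (a log2 fold change of 1.5, SE 0.32, adjusted p = 0.00187), with values of 1.96 for control replicates 1 and 2 only and 1.16 for control replicates 3 and 4 only, both called. HRK, a BH3-only gene best known from neurons, was 3.37-fold higher with siGOLM1-1 (1.75, SE 0.41, adjusted p = 0.00323) at 47 to 116 counts per library, against 8 to 37 counts in the control. Its scaled levels overlapped, at 0.67 to 2.18 CPM with siGOLM1-1, against 0.16 to 0.78 CPM in the control. HRK kept its call with only control replicates 1 and 2 (2.42) and with only control replicates 3 and 4 (1.32). BAD, the BH3-only protein held by 14-3-3 proteins when phosphorylated, was lower with siGOLM1-1 (-0.36, adjusted p = 0.0148) and higher with siGOLM1-2 (0.62, adjusted p = 0.000428), and the siGOLM1-1 call was lost against control replicates 1 and 2 alone (-0.27, adjusted p = 0.130).

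BCL2L2, which encodes the guardian BCL-w, averaged 16.3 CPM with siGOLM1-1 against 29.2 CPM in the control, a fall of 1.79-fold (a log2 fold change of -0.84, SE 0.10, adjusted p = 1.06e-05). BCL2L13, a mitochondrial family member, was 1.47-fold lower with siGOLM1-1 (-0.56, adjusted p = 6.88e-06). With siGOLM1-2, BCL2L15 was 2.28-fold higher (1.19, adjusted p = 2.74e-06), and BOK, an effector-like member, 1.43-fold higher (0.52, adjusted p = 0.00306). BNIP3L, a mitophagy receptor with a BH3-like region, was 1.68-fold lower with siGOLM1-2 (-0.74, adjusted p = 0.000146). BCL2A1, a guardian induced by NF-kB, held 1.17, 1.07, 0.86 and 6.74 CPM with siGOLM1-2, against 0.62, 0.53, 0.23 and 0.12 CPM in the control. Its call with siGOLM1-2 (a log2 fold change of 2.71, adjusted p = 0.00717) rested in size on replicate 4, without which the log2 fold change was 1.46, and it was lost against control replicates 1 and 2 alone (2.08, adjusted p = 0.0841).

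**Figure D5:**
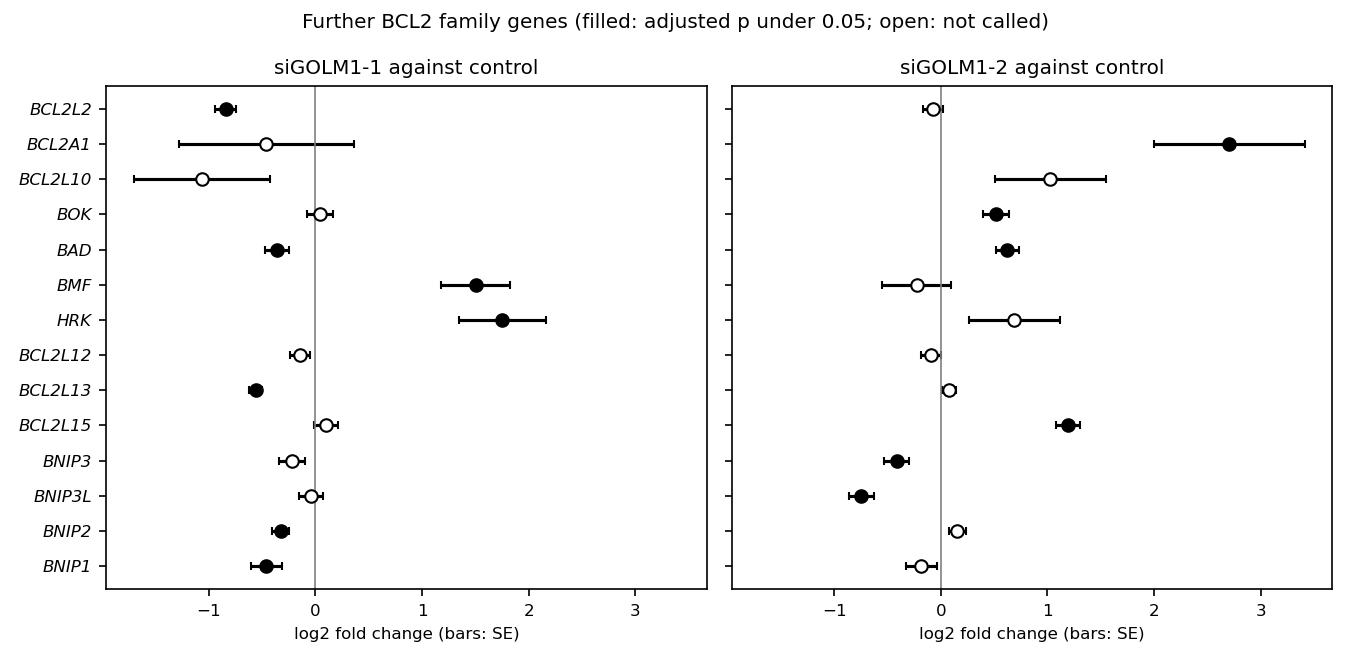
Log2 fold change with siGOLM1-1 and with siGOLM1-2 against control for the further BCL2 family genes tested, with error bars of 1 SE; filled points passed an adjusted p of 0.05 in edgeR. BMF and HRK lie at 1.5 and 1.75 with siGOLM1-1, and BCL2A1, at 2.71 with siGOLM1-2, has wide errors with both siRNAs.

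Across 76 genes of apoptosis lists that hold no member, the further family genes included, 73 were tested. Calls with siGOLM1-1 were 20 higher and 19 lower, and calls with siGOLM1-2 were 25 higher and 20 lower, which is 53.4% and 61.6% of the genes tested in these lists, beside 47.5% and 45% of all genes tested. Their median log2 fold changes were 0.01 and 0.10, against -0.01 over all genes tested with each siRNA. Among 13 genes of the apoptosome, caspases and mitochondrial factors, 1 was called higher and 4 lower with siGOLM1-1, and 3 higher and 7 lower with siGOLM1-2 (38.5% and 76.9% called, beside 47.5% and 45% of all genes). CASP6, an effector caspase, was lower with both, at 10.7 CPM with siGOLM1-1 and 11.4 CPM with siGOLM1-2, against 21.2 CPM in the control (log2 fold changes -0.98 and -0.90). CYCS, which encodes cytochrome c, was lower with siGOLM1-1 (-0.38, adjusted p = 0.00236) and with siGOLM1-2 (-0.26, adjusted p = 0.0244), and the siGOLM1-2 call was lost in 6 of 18 alternatives. Those were control replicates 3 and 4 alone (-0.20, adjusted p = 0.160), library totals (-0.19, adjusted p = 0.104), and leaving out siGOLM1-2 replicate 1 or 3 or control replicate 1 or 2 (-0.24 to -0.23, adjusted p = 0.0567 to 0.0749).

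Of 6 inhibitor of apoptosis genes tested, 2 were called higher and 1 lower with siGOLM1-1, and 3 higher and 2 lower with siGOLM1-2 (50% and 83.3% called, beside 47.5% and 45% of all genes). XIAP, which inhibits caspases directly, was 1.80-fold higher with siGOLM1-1 (a log2 fold change of 0.85, SE 0.11, adjusted p = 3.26e-05) and 1.71-fold higher with siGOLM1-2 (0.77, SE 0.11, adjusted p = 8.44e-05). BIRC5, which encodes survivin, was lower with both (-0.60 and -0.68). Against control replicates 3 and 4 alone neither call was kept, at -0.38 with siGOLM1-1 (adjusted p = 0.0895) and -0.45 with siGOLM1-2 (adjusted p = 0.0501).

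Of 13 genes of death receptors, ligands and adaptors tested, 6 were called higher and 2 lower with siGOLM1-1, and 7 higher and 1 lower with siGOLM1-2 (61.5% called with each, beside 47.5% and 45% of all genes). Between siGOLM1-1 and siGOLM1-2, 4 were called higher and 6 lower (76.9%, beside 54.4% of all genes). FAS, a death receptor whose signal reaches mitochondria through BID, held 16.6, 10.4, 12.3 and 9.02 CPM with siGOLM1-1 and 77.6, 86.7, 79.5 and 84.5 CPM with siGOLM1-2, against 36.5, 35.2, 29.9 and 27.7 CPM in the control. The groups did not overlap, with siGOLM1-1 below and siGOLM1-2 above the control. The FAS level fell 2.67-fold with siGOLM1-1 (a log2 fold change of -1.41, SE 0.16, adjusted p = 7.92e-06) and was 2.54-fold higher with siGOLM1-2 (1.34, SE 0.15, adjusted p = 1.39e-05), and between siGOLM1-1 and siGOLM1-2 the log2 fold change was -2.76 (adjusted p = 1.71e-08). TNFSF10, the gene of the ligand TRAIL, was 3.06-fold higher with siGOLM1-2 (1.61, SE 0.13, adjusted p = 6.57e-07) and was not called with siGOLM1-1 (0.15, adjusted p = 0.372).

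Among 13 regulators of BCL2 family transcription, 4 were called higher and 4 lower with siGOLM1-1, and 4 higher and 2 lower with siGOLM1-2 (61.5% and 46.2% called, beside 47.5% and 45% of all genes). E2F1, with the smallest p of this list with siGOLM1-1, was lower with siGOLM1-1 (-1.04, adjusted p = 7.49e-07) and with siGOLM1-2 (-0.31, adjusted p = 0.0119). Its siGOLM1-2 call was lost in 3 of 18 alternatives. Those were control replicates 3 and 4 alone (-0.14, adjusted p = 0.243), library totals alone (-0.23, adjusted p = 0.0600) and leaving out control replicate 2 (-0.23, adjusted p = 0.0604). ATF4, the stress response factor upstream of BH3-only genes, was 1.72-fold higher with siGOLM1-1 (a log2 fold change of 0.78, SE 0.13, adjusted p = 0.000241) and was not called with siGOLM1-2 (0.15, adjusted p = 0.374). The siGOLM1-2 value of ATF4 ran from 0.02 to 0.31 over 18 alternatives, and 1 of them called it. MDM2, both a target and an inhibitor of p53, was 1.80-fold higher with siGOLM1-2 (0.85, SE 0.16), and its log2 fold change with siGOLM1-1 was 0.30 (adjusted p = 0.144). The siGOLM1-1 value of MDM2 ran from 0.07 to 0.58 over 18 alternatives and was called in 2 of them. MYC and STAT3 were lower with siGOLM1-1 (-0.57 and -0.40) and higher with siGOLM1-2 (0.33 and 0.51), although the MYC call with siGOLM1-2 was lost against control replicates 1 and 2 alone with a value of similar size (0.30, adjusted p = 0.0555). Of 14 genes of protein turnover and membrane binding, 5 were called higher and 3 lower with siGOLM1-1, and 4 higher and 6 lower with siGOLM1-2 (57.1% and 71.4% called, beside 47.5% and 45% of all genes).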

How the data were processed

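Per the labels' protocols, total RNA was made into stranded mRNA libraries (TruSeq) and sequenced in paired-end mode. The submitters' processing notes name bcl2fastq 2.20, STAR 2.7.3, DESeq2 1.24.0 and hg19. The read counter, the annotation and the handling of strand are not given in the sources used here. The authors deposited raw counts per gene, in which 24653 genes had no count in any library. Their deposited result tables hold, per the file headers, log2 fold changes and their standard errors, Wald statistics (score), p-values with adjusted values, and the mean signal of each gene after normalisation; they were used to compare calls for the members alone.

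Differences were computed here with edgeR 4.0.16 in R 4.3.3 (filterByExpr, TMM factors, robust quasi-likelihood fit of all 12 libraries with no covariate, 9 residual degrees of freedom, common biological coefficient of variation 0.146), and every adjusted p is from this test over 17532 genes unless another tool is named. Standard errors are on the log2 scale. CPM was computed from the counts and the TMM-scaled totals. Alternatives used other scalings and filters, DESeq2 1.42.0, a replicate block, a surrogate variable (sva 3.50.0), subsets of the groups and each control pair, and left out each library in turn.

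The members, the gene lists and the motifs were chosen with earlier results of these data known. Named genes are the members, GOLM1, the further BCL2 family genes, the 3 genes per pathway list with the smallest p against control, and the 2 profiles most like each called member; not all of them are printed. Exon lengths were matched from GENCODE 29 and used without coordinates, and promoters came from RefSeq (GRCh38.p14).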

Additional observations from a re-analysis of the deposited data

Results flagged for a closer look

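PMAIP1 in siGOLM1-2 replicate 4 stood apart from the rest of its group, at 19.4 CPM with the others at 12.7, 13.0 and 13.5 CPM. Its distance to the nearest of them was 0.882 of the range of the group. It was 1 of 45 groups of 4 libraries examined in this way over the members and their ratios, and chance gives about 5%. Without this library the siGOLM1-2 log2 fold change of PMAIP1 was 0.35 in edgeR, with an adjusted p of 0.0835.

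MCL1 responded in opposite directions to the siRNAs. It was higher with siGOLM1-1 and lower with siGOLM1-2 than in the control, and the difference between siGOLM1-1 and siGOLM1-2 was 1.27 on the log2 scale (edgeR adjusted p = 7.42e-08), with all 4 siGOLM1-1 libraries above all 4 siGOLM1-2 libraries.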

How the results depend on the processing

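Members called ranged from 8 to 10 with siGOLM1-1 against control, from 4 to 6 with siGOLM1-2 against control, and stayed at 8 between siGOLM1-1 and siGOLM1-2 over the alternatives run. Of the members' results under alternatives, 493 kept their side of the threshold, 17 gained a call and 10 lost one, and no called member changed sign. The losses were BCL2 and PMAIP1 with siGOLM1-2, in 5 alternatives each, and the gains included BCL2L1 in 6 alternatives with siGOLM1-1 and in 8 with siGOLM1-2. BCL2 with siGOLM1-1 gained a call with a surrogate variable (-0.34, adjusted p = 0.0458), and BID with siGOLM1-2 when scaled by library totals (0.23, adjusted p = 0.0244). The sign of the uncalled BIK difference between siGOLM1-1 and siGOLM1-2 turned without siGOLM1-1 replicate 1 (0.03) or siGOLM1-2 replicate 4 (0.11). The causes were not tested. Of 12 same-numbered pairs across groups, 3 correlated above 0.1 (range -0.20 to 0.35), and 4 of 12 libraries correlated best with their own number. With 4 libraries per group, these values cannot decide whether equal numbers mark paired samples. With a replicate block, 8389, 7929 and 9613 genes were called in the comparisons of siGOLM1-1 with control, siGOLM1-2 with control and siGOLM1-1 with siGOLM1-2, against 8333, 7885 and 9541 without it, and PMAIP1 with siGOLM1-2 lost its call (log2 fold change 0.51, adjusted p = 0.050). BIK and BCL2 held at most 124 and 150 counts in a library, which limits their precision.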
